A study of Mus musculus with 2 samples.

Results

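The mitochondrial ribosomal protein genes were taken as every gene of the 2 gene tables whose symbol is Mrpl or Mrps followed by a number and at most 1 letter. This rule found 77 of 43346 mouse genes, 48 with a large subunit symbol (Mrpl) and 29 with a small subunit symbol (Mrps). The cells were G1E-ER4, an immortalized mouse erythroid line derived from cells without a functional Gata1 gene, into which a fusion of GATA1 and the hormone-binding domain of an estrogen receptor was introduced. The labels give 1 group, 2 polyadenylated RNA libraries made as biological replicates 1 and 2 of cells after 24 h in 10 nM 17beta-estradiol, and list the donor as male and postnatal. Both libraries come from 1 line and 1 biosample record, and their difference may in part be technical. No untreated sample was analysed here, so nothing below measures an effect of estradiol.

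The mitochondrial ribosome makes the few inner membrane proteins encoded by mitochondrial DNA, all of them parts of the respiratory chain and ATP synthase. Its ribosomal RNAs are transcribed inside the organelle, while all of its proteins are encoded in the nucleus, made in the cytosol and imported. Some have counterparts in bacterial ribosomes and others are found in mitochondrial ribosomes alone. In erythroid cells mitochondria also carry steps of heme synthesis, and red cells discard them at the end of maturation.

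Replicate 1 was 5.09-fold deeper, with 70451041 estimated counts over all genes, against 13841484 in replicate 2. A limit of 3 counts therefore stands for 0.0426 CPM (counts-per-million, here of these unscaled totals) in replicate 1 and 0.217 CPM in replicate 2. All 10 erythroid markers had at least 1 TPM (transcripts-per-million) in both libraries, and Hbb-bs, an adult beta globin gene, had 122878 TPM in replicate 1 and 45332 in replicate 2. Of 14 markers of other blood, endothelial and stromal cells, 1 reached 1 TPM in both, the platelet gene Gp9 with 2.02 TPM in replicate 1 and 4.33 in replicate 2, and 3 were at 0 counts in both. In bulk RNA, fewer cells of a type and less RNA per cell cannot be told apart.

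Most members were expressed. A level of 1 TPM or more in each library was found for 65 of the 77 members (84.4%), against 17.2% of all genes and 33.1% of protein-coding genes. The 65 were 43 of 48 Mrpl and 22 of 29 Mrps genes. In single libraries 71 members reached that level in replicate 1 and 65 in replicate 2. The median member had 32.7 TPM in replicate 1 and 15.7 in replicate 2. Among the 65 detected members the medians were 44.5 and 19.9 TPM in replicates 1 and 2, beside 19.0 and 14.7 TPM over all 7444 detected genes. Together the members took 0.496% of TPM in replicate 1 and 0.434% in replicate 2, a mean of 0.465 ± 0.0435% (SD, n = 2). Of the counts they took 0.318% in replicate 1 (0.316 to 0.319%, Wilson interval at 95%), against 0.223% in replicate 2 (0.221 to 0.226%). These intervals cover counting error only, and the libraries lay further apart than that error.

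**Figure D1:**
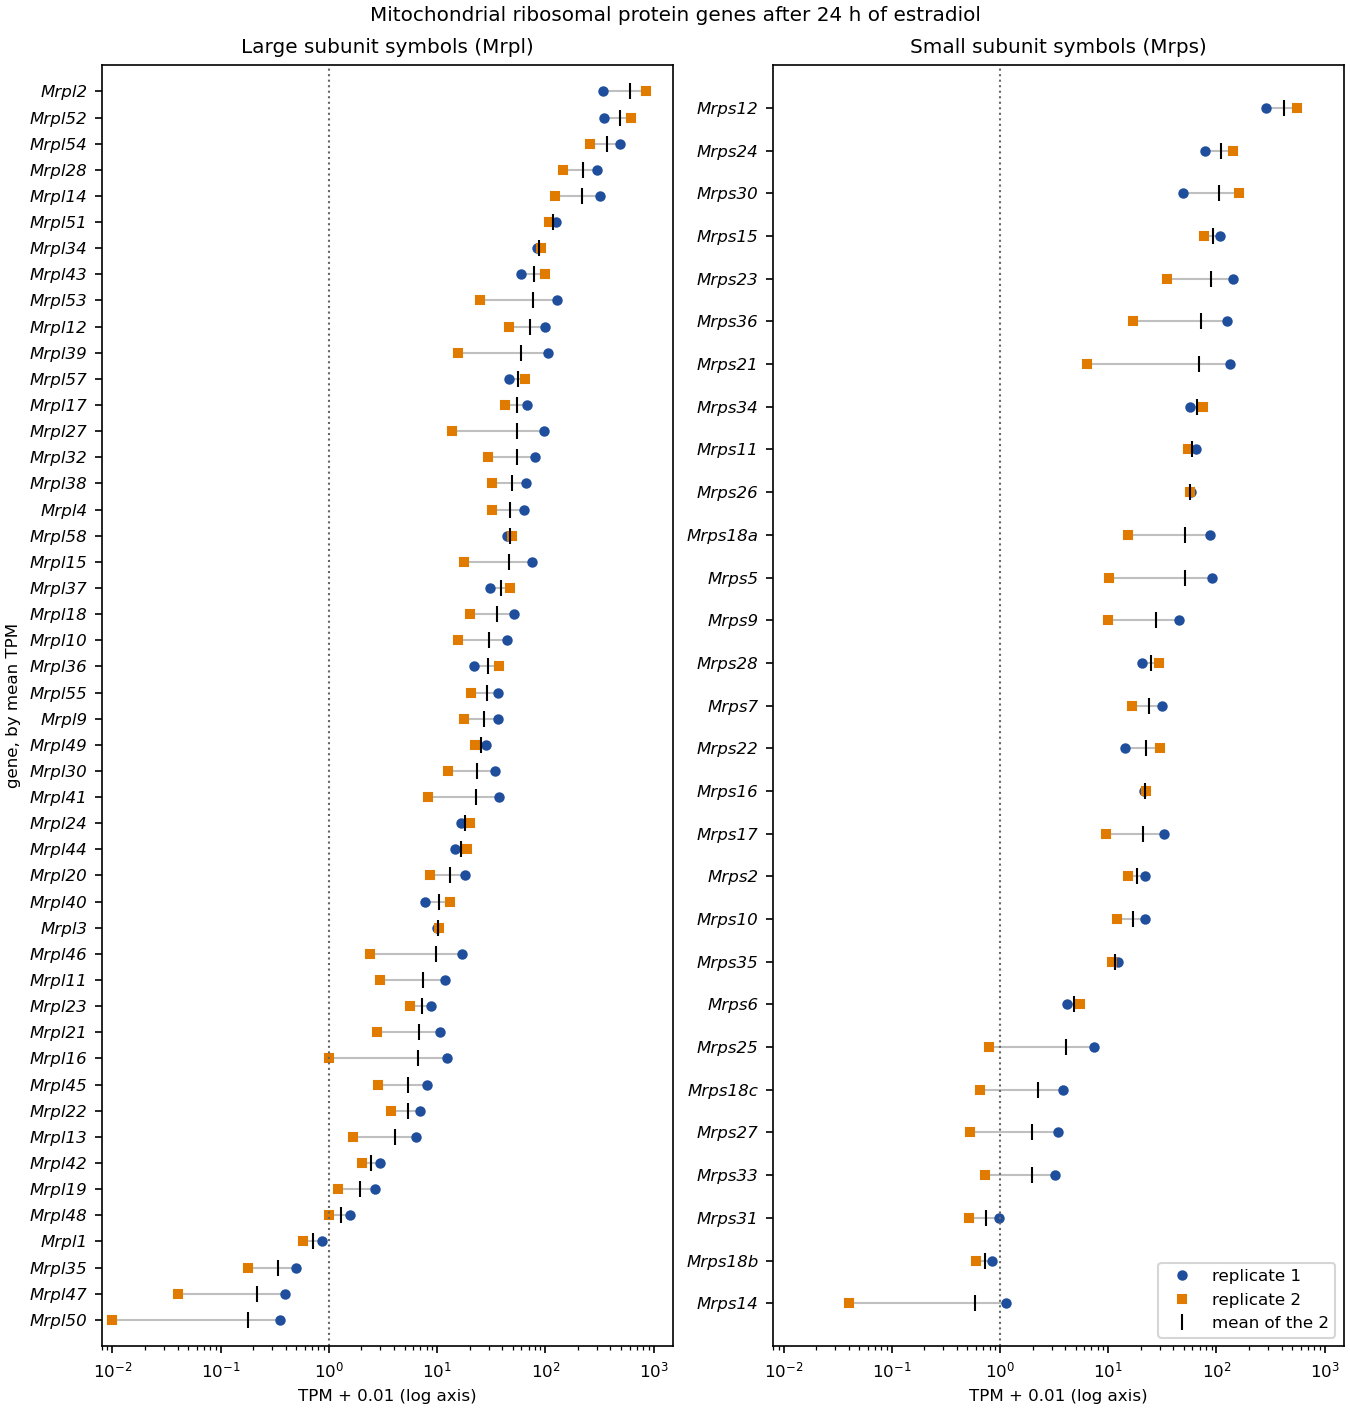
Level of each of the 77 genes in TPM with 0.01 added, on a log axis, for Mrpl symbols on the left and Mrps symbols on the right; circles are replicate 1, squares replicate 2, ticks the mean of the 2, and the dotted line marks 1 TPM. The members run from under 1 TPM to the 859 TPM of Mrpl2 in replicate 2, and 65 lie at or above the dotted line in both libraries.

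Mean levels ran from 0.170 TPM (Mrpl50) to 601 TPM (Mrpl2) within a set of genes whose proteins nearly all join 1 particle. In replicate 1 the 5 highest members held 36.4% of the members' TPM, and in replicate 2 the 5 highest held 56.4%. The libraries shared 3 of their 5 highest and 7 of their 10 highest members. They likewise shared 3 of their 5 lowest and 7 of their 10 lowest. Across the 77 genes, which are not independent replicates, log2 TPM of the 2 libraries had a Pearson r of 0.89 and the TPM values a Spearman rho of 0.81. Over the 65 detected members alone r was 0.80, beside 0.83 over all detected genes.

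Among large subunit genes, Mrpl2 had the highest mean level. Mrpl2 (mm10 chromosome 17, 46646229 to 46650139, plus strand) encodes a protein next to the peptidyl transferase centre, and had 342 TPM in replicate 1 and 859 in replicate 2. That level rested on a short transcript annotated as not coding: Mrpl2-205, 434 bases long, took 75.9% of the gene's TPM in replicate 1 and 96.8% in replicate 2. Its coding transcripts alone held 81.8 TPM in replicate 1 and 27.9 in replicate 2. Mrpl52, a subunit found only in mitochondrial ribosomes, had 350.0 TPM in replicate 1 and 621 in replicate 2. Both Mrpl2 and Mrpl52 were thus higher in replicate 2. Mrpl54, also specific to mitochondria, had 493 TPM in replicate 1 and 256 in replicate 2. The bacterial-type subunit gene Mrpl28 had 302 TPM in replicate 1 and 144 in replicate 2. Mrpl14, whose protein sits at the face that meets the small subunit, had 317 TPM in replicate 1 and 123 in replicate 2. Its coding transcript held only 68.4 TPM in replicate 1 and 32.8 in replicate 2. These last genes, Mrpl54, Mrpl28 and Mrpl14, were higher in replicate 1. By counts rather than length-corrected levels, Mrpl28 had the most in replicate 1 (18390 counts).

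Of the small subunit genes, Mrps12 led in both libraries. Mrps12 (chromosome 7, 28739641 to 28741820, minus strand), which encodes a protein of the decoding centre, had 289.6 TPM in replicate 1 and 551 in replicate 2. Nearly all of it lay in coding transcripts, 99.997% in replicate 1 and 100% in replicate 2. Mrps24, a protein of the messenger RNA entry site, had 78.4 TPM in replicate 1 and 144 in replicate 2. Mrps30, whose protein has a small subunit name but lies in the large subunit in later structures, had 49.4 TPM in replicate 1 and 162 in replicate 2. All of Mrps12, Mrps24 and Mrps30 were higher in replicate 2. Mrps15, a bacterial-type subunit gene, had 107 TPM in replicate 1 and 77.0 in replicate 2. Its coding transcript held only 11.3 TPM in replicate 1 and 7.69 in replicate 2. Mrps23, specific to mitochondria, had 142 TPM in replicate 1 and 35.2 in replicate 2. Mrps15 and Mrps23 were the other way round from Mrps12, with the higher value in replicate 1.

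At the low end, 12 members were under 1 TPM in at least 1 library. Mrpl50, a mitochondria-specific subunit gene, had 46 counts in replicate 1 and 0 in replicate 2. A limit of 3 counts allows up to 0.217 CPM of the unscaled total there. Mrpl47, of the exit tunnel, had 27 counts (0.38 TPM) in replicate 1 and 1 count (0.03 TPM) in replicate 2. Mrpl35, a bacterial-type subunit gene, had 0.49 TPM in replicate 1 and 0.17 in replicate 2. Those genes lay under 1 TPM in both libraries. So did Mrpl1, the gene of the L1 stalk protein beside the transfer RNA exit site, with 0.85 TPM in replicate 1 and 0.57 in replicate 2, or 173 and 21 counts. Mrps14, a bacterial-type head protein gene, had 108 counts (1.12 TPM) in replicate 1 and 1 count (0.03 TPM) in replicate 2. Mrps31, specific to mitochondria, had 0.97 TPM in replicate 1 and 0.51 in replicate 2. A further group passed 1 TPM in replicate 1 alone, and it was mostly made of small subunit genes. Mrpl16, whose protein lies near the peptidyl transferase centre, had 12.2 TPM in replicate 1 and 0.99 in replicate 2. Mrps25 had 7.35 TPM in replicate 1 and 0.78 in replicate 2. The pentatricopeptide repeat gene Mrps27 had 3.42 TPM in replicate 1 and 0.52 in replicate 2. Each of Mrpl16, Mrps25 and Mrps27 was thus lower in replicate 2, where they had 11, 5 and 10 counts. After scaling for depth they were 11.1-fold, 10.6-fold and 5.96-fold higher in replicate 1. Mrps33 had 124 counts (3.18 TPM) in replicate 1 and 3 counts (0.72 TPM) in replicate 2. Mrpl48, of the central protuberance, stood just inside with 1.55 TPM in replicate 1 and 1.00 in replicate 2.

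Mammals keep 3 related genes for the bacterial protein S18, and these differed in level. Mrps18a, whose protein lies in the large subunit in later structures, had 86.9 TPM in replicate 1 and 15.1 in replicate 2. Mrps18c, the closest counterpart of the bacterial protein, had 3.84 TPM in replicate 1 and 0.65 in replicate 2. Mrps18b, a small subunit member, had 0.84 TPM in replicate 1 and 0.59 in replicate 2. Mrps18a was the highest of the family in both libraries. In replicate 2 Mrps18c had 5 counts and Mrps18b 6, so the order of that pair was not detectable there at this depth. By the deposited posterior mean, Mrps18b had 1.32 TPM in replicate 1 and 2.62 in replicate 2, and Mrps18c had 4.20 in replicate 1 and 2.49 in replicate 2. The deposited credibility bounds of Mrps18b, 0.869 to 1.82 TPM in replicate 1 and 1.19 to 4.18 in replicate 2, lay above its listed TPM in both libraries, so its place under 1 TPM holds for the listed TPM alone.

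By functional region of the large subunit, the stalk that recruits translation factors was expressed with all 3 genes. Mrpl12, also reported to bind the mitochondrial RNA polymerase, had 98.5 TPM in replicate 1 and 46.6 in replicate 2. Mrpl10, its anchor, had 44.2 TPM in replicate 1 and 15.7 in replicate 2. Mrpl11, at the stalk base, had 11.8 TPM in replicate 1 and 2.93 in replicate 2. The stalk genes kept 1 order in both libraries, with Mrpl12 highest and Mrpl11 lowest. In the central protuberance, all 6 genes were detected, and their median was 34.4 TPM in replicate 1 and 13.4 in replicate 2. Mrpl27 led there in replicate 1 with 96.9 TPM and had 13.6 TPM in replicate 2, while Mrpl38 had 66.0 TPM in replicate 1 and led with 32.5 TPM in replicate 2. Around the exit tunnel, 7 of 8 genes passed, all but Mrpl47. Mrpl39, related to threonyl-tRNA synthetases, had 105 TPM in replicate 1 and 15.5 in replicate 2. Mrpl17 had 68.2 TPM in replicate 1 and led with 42.3 TPM in replicate 2. Mrpl45, which tethers the ribosome to the inner membrane, had 7.99 TPM in replicate 1 and 2.83 in replicate 2. Mrpl23, beside it at the exit, had 8.82 TPM in replicate 1 and 5.57 in replicate 2, with a deposited posterior SD of 40.2% of its 25 counts in replicate 2. The processed pseudogene entry Mrpl23-ps1 held 54 counts in replicate 1 and 13 in replicate 2, so the split between gene and copy is uncertain.

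Some members have a second role or have been moved out of the ribosome. Mrpl58 encodes a peptidyl-tRNA hydrolase built into the large subunit that can free stalled chains. The whole gene had 44.5 TPM in replicate 1 and 48.9 in replicate 2, a spread smaller than that of most members. Its coding transcripts alone held 6.66 TPM in replicate 1 and 1.80 in replicate 2, a wider relative gap. Mrps36 is now known as a subunit of the 2-oxoglutarate dehydrogenase complex of the citric acid cycle. It had 126 TPM in replicate 1 and 17.1 in replicate 2, the higher value again in replicate 1. Of 5 mitochondrial ribosome genes with other symbols, 4 passed 1 TPM in both libraries, and the lowest of the 4, Chchd1, had 1.57 TPM in replicate 1 and 1.96 in replicate 2. Aurkaip1 had the highest mean, with 242 TPM in replicate 1 and 33.2 in replicate 2. Dap3, a GTP-binding protein of the small subunit head, had 80.8 TPM in replicate 1 and 17.0 in replicate 2. By counts its gap was smaller, 3941 in replicate 1 and 435 in replicate 2. After the scaling for depth described below, that was a log2 ratio of only 0.43. Gadd45gip1, a large subunit protein, had 56.5 TPM in replicate 1 and 62.7 in replicate 2, the highest of the 5 there. The gene that did not pass, Ptcd3, a pentatricopeptide repeat protein where messenger RNA enters, had 0.82 TPM in replicate 1 and 0.33 in replicate 2.

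The median Mrpl gene was slightly above the median Mrps gene, and this order depended on how it was taken. In replicate 1 the medians were 35.1 TPM for Mrpl and 31.7 TPM for Mrps genes, a log2 ratio of large over small of 0.15. In replicate 2 they were 17.6 TPM for Mrpl and 15.1 TPM for Mrps genes, a ratio of 0.22. The mean of the ratios was 0.18 ± 0.05 (SD, n = 2), with no test since members are not replicates. The ratio turned negative, in favour of the small subunit, with members detected in both libraries alone (-0.24), with CPM in place of TPM (-0.23) and with coding transcripts alone (-0.45). With Mrps18a and Mrps30 counted as large and Mrps36 left out it was 0.67. Summed levels were 3426 TPM over 48 Mrpl and 1529 TPM over 29 Mrps genes in replicate 1, and 2971 and 1369 TPM in replicate 2. This sum ratio of 1.14 ± 0.03 on the log2 scale carries the larger number of Mrpl genes.

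Sorted by origin, the small subunit genes specific to mitochondria formed the class with the lowest median. Among large subunit genes with a bacterial counterpart 25 of 29 were detected, with a median of 34.0 TPM in replicate 1 and 15.7 in replicate 2. Large subunit genes specific to mitochondria, among them Mrps18a and Mrps30, were detected in 20 of 21 cases, with medians of 44.5 and 22.4 TPM in replicates 1 and 2. For the small subunit, 14 of 16 genes with a bacterial counterpart were detected, at medians of 32.2 and 13.7 TPM. Small subunit genes specific to mitochondria were detected in 5 of 10 cases and had medians of 9.77 and 5.80 TPM. That class held Mrps18b, Mrps25, Mrps27, Mrps31 and Mrps33 below 1 TPM in replicate 2. By the deposited posterior mean, Mrps18b (2.62 TPM), Mrps25 (1.11) and Mrps33 (1.24) were above 1 TPM there. Mrps27 and Mrps31 stayed below it, at 0.54 TPM each. Over all members, 70 were detected by posterior mean, against 65 by the listed TPM. The classes have few genes and no test was made between them.

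Between the 2 libraries the members moved in both directions, more often towards replicate 1. Counts were compared as log2 of replicate 1 over replicate 2 after TMM scaling, with a two-sided exact binomial test per gene across 8884 genes with a mean of at least 1 CPM and Benjamini-Hochberg adjustment. A gene was called if it differed 2-fold or more with an adjusted p under 0.05, and the test compares these libraries, not conditions. Of the 77 members 70 were tested and 35 were called (50%), against 47.9% of all genes tested. So the share called was close to the background. Of the members tested, 28 were higher in replicate 1 (40%, against 30% of all genes) and 7 were lower in replicate 1 (10%, against 17.9%). With total counts in place of TMM the split was 39 higher and 2 lower for the members, and 3564 higher and 942 lower for all genes, against 2663 and 1593 with TMM. With TPM ratios the split was 33 higher and 3 lower for the members, and 2809 higher and 1450 lower for all 8884 genes. The median log2 ratio was 0.81 for the members and 0.20 for all genes tested, a gap of 0.61. Above the median of all genes lay 47 of the 70. Scaling by total counts moved every gene by 0.40 and left the gap at 0.60.

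**Figure D2:**
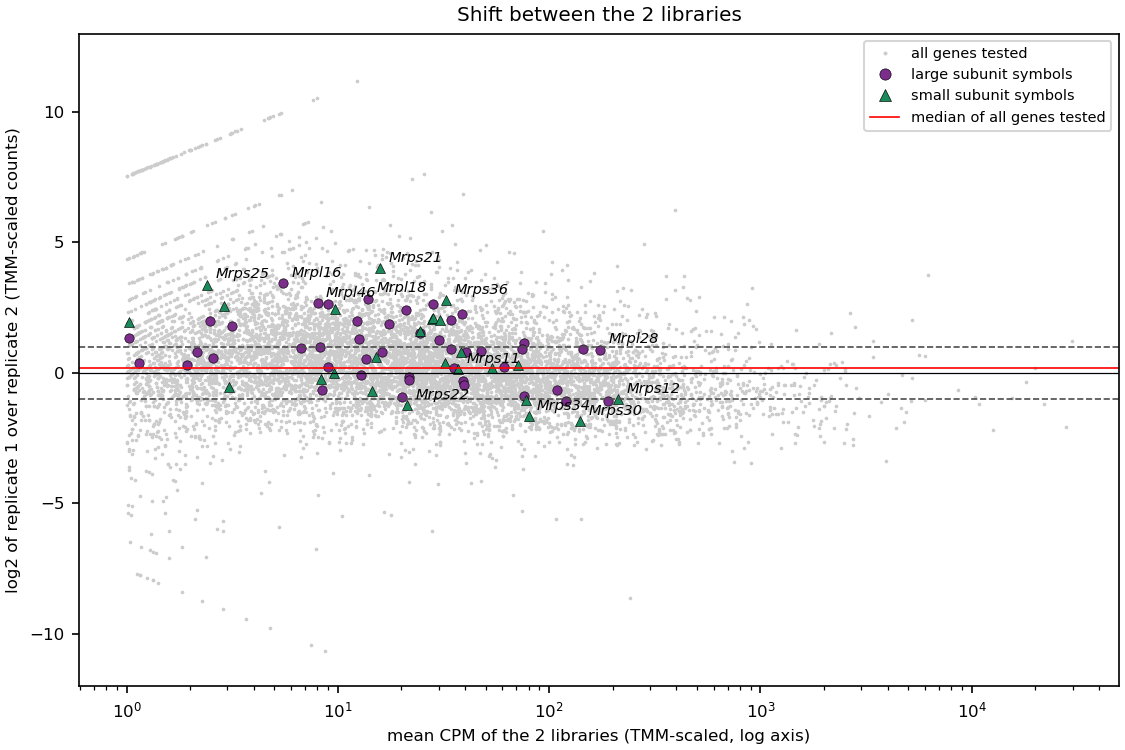
Log2 of replicate 1 over replicate 2 (TMM-scaled counts) against the mean CPM of the 2 libraries on a log axis, for all genes tested (gray dots), Mrpl genes (circles) and Mrps genes (triangles); dashed lines mark 2-fold and the red line the median of all genes tested, 0.20. Members spread from -1.85 (Mrps30) to 4.03 (Mrps21), with several of the most abundant ones just below -1 and many of moderate level above 1.

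The members highest in replicate 1 came from both subunits. Mrps21 (chromosome 3, 95862634 to 95871519, minus strand), whose protein lies on the small subunit platform, had 2421 counts (133 TPM) in replicate 1 and 22 counts (6.29 TPM) in replicate 2. Its log2 ratio of 4.03 was the largest among members with a mean of at least 10 CPM (16.4-fold, 95% interval 10.8 to 26.2). Mrpl18, a central protuberance protein, had 1978 counts in replicate 1 and 41 in replicate 2 (log2 ratio 2.84). In TPM the gap was smaller, 51.7 in replicate 1 and 19.9 in replicate 2. The deposited mean length of its transcripts, which enters TPM, was 706 bases in replicate 1 and 314 in replicate 2. Also at a mean of at least 10 CPM, Mrps36 had a log2 ratio of 2.79, Mrpl27 of 2.62 and Mrpl39 of 2.42. Members called with a lower mean CPM included Mrpl16 (3.45, with 11 counts in replicate 2) and Mrps25 (3.38, with 5 counts). Others of these were Mrpl46 (2.68), Mrpl45 (2.64) and Mrps27 (2.56). Among called members the largest adjusted p was 0.0121, for Mrpl35 in the exact binomial test. Outside the test for low counts, Mrpl50 was 2.29-fold higher in replicate 1 if 3 counts are taken as the limit in replicate 2. The lower bound of its 95% interval was 1.79-fold. Mrps14, with 1 count in replicate 2, was 16.1-fold higher in replicate 1 (95% interval 2.83 to 642), and Mrpl47, also with 1 count, 4.03-fold (0.664 to 165). Mrps33, with 3 counts in replicate 2, was 6.16-fold higher (2.06 to 30.3).

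All 7 members called lower in replicate 1 had at least 14.1 TPM in both libraries, and they included the highest genes of each subunit. Mrps30 (chromosome 13, 118378381 to 118387252, minus strand) had 4900 counts in replicate 1 and 2641 in replicate 2, a log2 ratio of -1.85. Mrps34, needed for a stable small subunit in mice, had 3103 counts in replicate 1 and 1468 in replicate 2, a ratio of -1.67. Mrps22, specific to mitochondria, had 1028 counts (14.1 TPM) in replicate 1 and 360 counts (30.2 TPM) in replicate 2, a ratio of -1.23. The others were Mrpl52 (-1.07), Mrpl2 (-1.06), Mrps24 (-1.02) and Mrps12 (-1.01), all close to the 2-fold limit. With total counts only Mrps30 and Mrps34 of the 7 stayed past it. By TPM, Mrps34 had 57.0 in replicate 1 and 74.9 in replicate 2, a log2 ratio of only -0.39. Mrps34 shares exons with Nme3, a nucleoside diphosphate kinase gene on the same strand: 763 of the 876 exon bases of Nme3 are also exon bases of Mrps34. Nme3 had 681 counts in replicate 1 and 4 in replicate 2, the opposite direction to Mrps34. How reads were divided between the pair was not tested.

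The shift followed subunit and class only loosely. Large subunit symbols gave 18 genes higher and 2 lower in replicate 1 out of 45 tested, with a median log2 ratio of 0.89. Small subunit symbols gave 10 higher and 5 lower out of 25, with a median of 0.39. Both medians lay above the 0.20 of all genes tested, of which 30% were called higher and 17.9% lower. In the stalk 2 of 3 genes were called higher, Mrpl11 (1.88) and Mrpl10 (1.54), and in the central protuberance 3 of 5 tested, Mrpl18, Mrpl27 and Mrpl46. Around the exit tunnel 2 of 7 tested were called higher, Mrpl45 (2.64) and Mrpl39, a share near the 30% of all genes tested, and none was called lower. The regions are too small to read a share from. Mrpl34 (-0.30), Mrpl58 (-0.28), Mrps16 (-0.23), Mrpl17 (-0.17) and Mrpl44 (-0.08) lay so near 0 that the 0.40 added by total count scaling turned their sign. Across the 70 tested members the log2 ratio had a Spearman rho of -0.31 with GC percent, -0.08 with length and -0.26 with mean TPM. Over all genes tested these were -0.24, -0.12 and -0.19, and the part of GC content and depth in the shift was not tested.

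**Figure D3:**
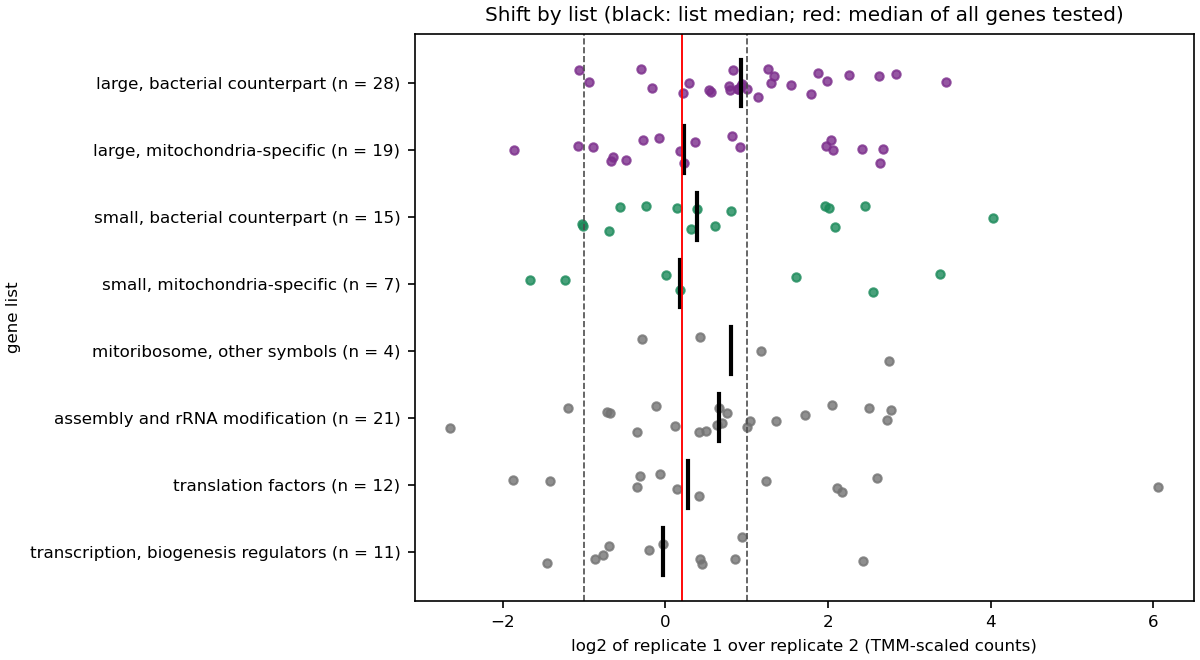
Log2 of replicate 1 over replicate 2 (TMM-scaled counts) for each tested gene of the 4 structural classes of members (purple, large subunit; green, small subunit) and of 4 lists of related genes (gray), without Mrps36; black bars are list medians, the red line is the median of all genes tested and dashed lines mark 2-fold. The class medians run from 0.18 for small subunit genes specific to mitochondria to 0.94 for large subunit genes with a bacterial counterpart, and every list spreads on both sides of 0.

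Genes that act around the ribosome had lower median levels than the members. Of 25 genes for assembly and ribosomal RNA modification 15 were detected, with a median of 5.61 TPM in replicate 1 and 2.14 in replicate 2, and 8 of 21 tested were higher and 2 lower in replicate 1, beside the 30% higher and 17.9% lower of all genes tested. Mpv17l2, an assembly factor of the inner membrane, had the highest mean, with 69.9 TPM in replicate 1 and 102.5 in replicate 2. Gtpbp10, a GTPase of large subunit maturation, had 0 counts in both. Malsu1, the silencing factor that binds Mrpl14, had 22.8 TPM in replicate 1 and 124 in replicate 2, a log2 ratio of -2.64. It thus stood opposite to Mrpl14, which was higher in replicate 1 with a ratio of 1.14. Translation factors were detected in 8 of 14 cases, with medians of 5.11 TPM in replicate 1 and 2.47 in replicate 2, and 5 of 12 tested were higher and 2 lower. By mean level Tsfm, the exchange factor of the elongation factor, led with 13.2 TPM in replicate 1 and 30.8 in replicate 2, though the elongation factor gene Tufm was above it in replicate 1 with 19.1 TPM. The release factor gene Mtrf1 had the lowest mean, with 0.18 and 0.26 TPM in replicates 1 and 2. Of 13 regulators of mitochondrial transcription and biogenesis 11 were detected, with medians of 5.54 TPM in replicate 1 and 6.41 in replicate 2, and 1 of 11 tested was higher and 1 lower. Myc had 88.9 TPM in replicate 1 and 165 in replicate 2, and the coactivator gene Ppargc1a had 0 counts in both libraries.

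Cytosolic ribosomal protein genes and nuclear genes of respiratory complex I were also more often higher in replicate 1 and had higher median levels. The 83 cytosolic genes had a median of 189 TPM in replicate 1 and 56.9 in replicate 2, with 50 of 77 tested higher and 4 lower in replicate 1 and a median log2 ratio of 1.59. The 50 Nduf genes had a median of 60.9 TPM in replicate 1 and 20.5 in replicate 2, with 26 of 45 higher and 6 lower and a median ratio of 1.34. Of all genes tested, 30% were called higher and 17.9% lower in replicate 1. The summed TPM of the Nduf genes went the other way, with 8965 in replicate 1 and 14084 in replicate 2. The members' median ratio of 0.81 lay below both and above that of all genes. No test of the difference between these lists was made.

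The median detected member lay almost wholly in coding transcripts, while a minority of members drew most of their level from transcripts not annotated as coding. Transcript types were taken from the later GENCODE M21 annotation, and shares of overlapping transcripts are model estimates from short reads. The median detected member had 99.3% of its TPM in coding transcripts in replicate 1 and 99.8% in replicate 2, beside 99.0% and 100% over detected protein-coding genes. Under 50% coding were 19 of the 65 detected members (29.2%) in replicate 1 and 23 (35.4%) in replicate 2, beside 21.0% and 24.1% of detected protein-coding genes. Summed, coding transcripts held 71.3% of the members' TPM in replicate 1 and 59.7% in replicate 2, beside 59.9% and 65.6% over all protein-coding genes. Among the 36 members with at least 10 TPM in both libraries and more than 1 transcript, the leading transcript was not coding in 14 (38.9%) in replicate 1 and in 18 (50%) in replicate 2. Over all genes of that level these shares were 31.2% and 33.9%. The same 14 members led with a transcript that is not coding in both libraries. The retained intron transcript Mrpl39-202, 523 bases long, made up 98.6% of Mrpl39 in replicate 1 and 96.1% in replicate 2. Its coding transcript held 1.53 TPM in replicate 1 and 0.60 in replicate 2. Mrps26, specific to mitochondria, drew 92.2% in replicate 1 and 99.1% in replicate 2 from the retained intron transcript Mrps26-201. At the other end, Mrps7, Mrps23 and Mrpl55 lay wholly in coding transcripts in both. Mrpl32, whose protein is matured by a membrane protease, has 1 transcript in the tables, annotated as subject to nonsense-mediated decay, with 80.7 TPM in replicate 1 and 29.7 in replicate 2.

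**Figure D4:**
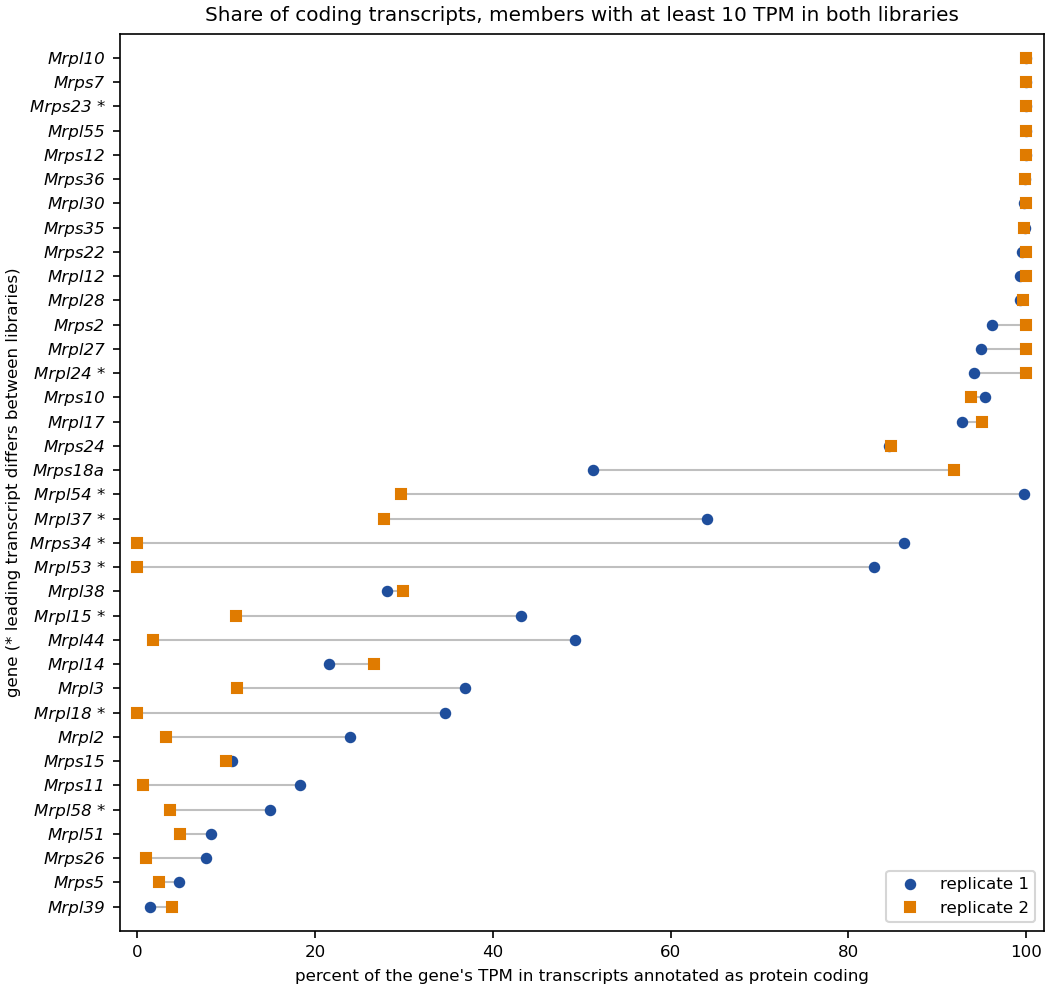
Percent of a gene's TPM in transcripts annotated as protein coding, for the 36 members with at least 10 TPM in both libraries and more than 1 transcript; circles are replicate 1, squares replicate 2, and an asterisk marks the 9 genes whose leading transcript differs. The genes fall into a group near 100% in both libraries, a group under 30% in both, and others between, with Mrpl54, Mrps34 and Mrpl53 furthest apart.

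The leading transcript differed between the libraries in 9 of these 36 members (25%), against 32.3% of all 3060 genes of that level. In Mrpl54 the coding transcript Mrpl54-201 held 99.8% in replicate 1 and 29.7% in replicate 2, where the retained intron transcript Mrpl54-202 led with 70.3%. Coding TPM of Mrpl54 was thus 492 in replicate 1 and 76.0 in replicate 2, a wider gap than for the whole gene. In Mrps34 the coding transcript Mrps34-201 held 86.3% in replicate 1 and 0% in replicate 2, where all counts were assigned to Mrps34-203, a transcript subject to nonsense-mediated decay. Mrpl53, specific to mitochondria, had 82.9% in the coding Mrpl53-201 in replicate 1 and 0% in replicate 2, where the retained intron transcript Mrpl53-202 held 100%. In these genes the coding share was the lower one in replicate 2. Mrpl37, also specific to mitochondria, led with the coding Mrpl37-201 (64.1%) in replicate 1 and with the noncoding Mrpl37-203 (71.7%) in replicate 2. Mrpl24 and Mrps23 each changed between coding transcripts. Mrpl15, Mrpl18 and Mrpl58 changed between transcripts that are not coding, and Mrpl18 had a coding share of 34.6% in replicate 1 and 0% in replicate 2.

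The members are spread over 17 chromosomes, with 11 on chromosome 11 and 8 on chromosome 17. Many start beside another gene that runs the other way. A protein-coding gene on the opposite strand starting within 1000 bases and pointing away was found for 23 of the 77 members (29.9%). The shares were 15.0% of detected protein-coding genes and 7.94% of all protein-coding genes. An overlap of up to 200 bases at the starts was allowed. Mrps12 starts 172 bases from Sars2, the mitochondrial seryl-tRNA synthetase gene. Mrpl36, a bacterial-type subunit gene, starts 29 bases from Ndufs6, a complex I subunit gene. Mrps11 and Mrpl46 are a small and a large subunit gene on chromosome 7. They run away from each other from RefSeq starts that lie 42 bases apart. The pair is outside the 23 because its GENCODE M21 spans overlap by more than 200 bases. Mrps11 had 64.7 TPM in replicate 1 and 55.1 in replicate 2, a log2 ratio of 0.14, while Mrpl46 had 17.0 and 2.37 TPM, a ratio of 2.68. At the level of whole genes, neighbouring starts thus went with unequal shifts in this pair. Most of the Mrps11 level lay in Mrps11-205, annotated as subject to nonsense-mediated decay, at 51.8 and 54.8 TPM in replicates 1 and 2. Its coding transcript Mrps11-201 had 11.8 and 0.33 TPM, so coding Mrps11 was higher in replicate 1, as Mrpl46 was. Exons of Mrps11 and Mrpl46 overlap on opposite strands, and the division of reads between these genes was not tested. Exons of 28 members overlap another gene on the opposite strand, and the sources used here do not say whether strand was used in counting. Exons of 7 members overlap another gene on the same strand, among them Mrps34 with Nme3, Mrps24 with Urgcp and Mrpl53 with Gm42688. The division of reads in these was not tested, and such overlaps were not counted over all genes.

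Promoter windows from RefSeq (GRCm38.p6, 250 bases before to 50 after the start) were matched by symbol for 68 members. They were searched on both strands for letters of factors known at mitochondrial or erythroid genes. The ETS letters CCGGAAG, which include sites of GABPA, were in 24 windows (35.3%), against 22.9% of the windows of tested genes and 9.12% of all windows. YY1 letters, AAGATGGC, were in 12 (17.6%), against 6.12% and 2.88%. The palindromic NRF1 consensus, in capitals in the short windows printed last, was in 3 (4.41%), against 2.64% and 0.977%. Any of these was in 35 windows (51.5%), against 29.6% of those of tested genes. The GATA letters AGATAA were in 10 (14.7%), against 5.60% of tested and 11.4% of all windows. The E-box CACGTG was in 5 (7.35%, against 11.4% and 7.24%) and TATAAA in 4 (5.88%, against 5.64% and 14.2%). The members' windows held a median of 21 CpG, tested genes 23 and all genes 7. A match is a description of letters and not a bound site, and none of these shares was tested.

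The windows of the highest member of each subunit, of the members that differed most between the libraries and of Mrpl46 from the pair with Mrps11 are given 5′ to 3′ on the strand of the gene, with the matched letters in capitals. Mrpl2 (chr17:46645971-46646270, plus strand) holds an E-box from position -131, counted from the start. Mrps12 (chr7:28741772-28742071, minus strand) holds YY1 letters in reverse from position -199 and ETS letters from position 2. Mrps21 (chr3:95871465-95871764, minus strand) holds ETS letters in reverse from position 19. Mrps30 (chr13:118387203-118387502, minus strand) holds none of the 6 motifs. Mrpl46 (chr7:78783040-78783339, minus strand) holds TATAAA from position -131, inside the Mrps11 gene.
Mrpl2: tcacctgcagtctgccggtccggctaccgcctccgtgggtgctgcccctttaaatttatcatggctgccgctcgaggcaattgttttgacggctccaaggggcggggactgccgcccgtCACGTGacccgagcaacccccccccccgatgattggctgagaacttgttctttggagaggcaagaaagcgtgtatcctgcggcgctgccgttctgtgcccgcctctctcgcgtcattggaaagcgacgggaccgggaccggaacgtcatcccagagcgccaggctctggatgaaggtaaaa
Mrps12: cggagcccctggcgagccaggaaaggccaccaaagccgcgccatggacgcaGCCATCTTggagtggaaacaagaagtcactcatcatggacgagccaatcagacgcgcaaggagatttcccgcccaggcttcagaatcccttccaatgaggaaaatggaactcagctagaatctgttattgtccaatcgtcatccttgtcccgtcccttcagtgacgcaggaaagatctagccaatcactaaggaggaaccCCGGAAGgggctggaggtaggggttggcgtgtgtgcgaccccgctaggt
Mrps21: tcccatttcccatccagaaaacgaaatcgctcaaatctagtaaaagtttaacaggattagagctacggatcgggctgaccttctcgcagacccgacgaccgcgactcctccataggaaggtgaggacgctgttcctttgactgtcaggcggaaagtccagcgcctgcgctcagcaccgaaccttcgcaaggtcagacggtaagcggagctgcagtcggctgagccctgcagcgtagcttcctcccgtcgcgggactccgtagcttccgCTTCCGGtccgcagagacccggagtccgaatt
Mrps30: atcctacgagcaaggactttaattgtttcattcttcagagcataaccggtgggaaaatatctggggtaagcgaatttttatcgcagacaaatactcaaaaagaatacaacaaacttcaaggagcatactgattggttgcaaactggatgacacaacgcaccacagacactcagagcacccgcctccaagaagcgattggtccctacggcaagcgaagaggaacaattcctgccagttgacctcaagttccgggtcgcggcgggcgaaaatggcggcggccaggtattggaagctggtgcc
Mrpl46: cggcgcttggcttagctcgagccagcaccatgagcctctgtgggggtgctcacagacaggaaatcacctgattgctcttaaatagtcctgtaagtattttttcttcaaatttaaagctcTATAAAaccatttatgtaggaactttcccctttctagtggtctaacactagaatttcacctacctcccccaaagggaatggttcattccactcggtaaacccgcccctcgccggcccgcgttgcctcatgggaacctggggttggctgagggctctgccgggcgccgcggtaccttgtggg

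The 3 members with NRF1 letters are shown as 60 bases around the match, which begins at position -125 in Mrpl39 (chr16:84735335-84735394, minus strand), at -87 in Mrpl32 (chr13:14613090-14613149, minus strand) and at -28 in Mrpl9 (chr3:94443283-94443342, plus strand). NRF1 is an activator of many nuclear genes for mitochondrial proteins.
Mrpl39: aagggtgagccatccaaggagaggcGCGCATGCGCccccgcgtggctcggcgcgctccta
Mrpl32: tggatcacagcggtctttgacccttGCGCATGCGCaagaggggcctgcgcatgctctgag
Mrpl9: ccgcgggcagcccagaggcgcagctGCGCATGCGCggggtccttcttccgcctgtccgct
Mrpl39 and Mrpl32 were called higher in replicate 1, with log2 ratios of 2.42 and 1.27. Of all tested members 40% were called higher, and of all genes tested 30%. A link between NRF1 letters and the shift was not tested. Mrpl9, a bacterial-type subunit gene, had 36.2 TPM in replicate 1 and 17.6 in replicate 2, a ratio of 0.90 that stayed under 2-fold.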

How the data were processed

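Polyadenylated RNA was measured in 2 libraries of 1 group. Per the deposited text and tables, the authors quantified transcriptome alignments on mm10 with GENCODE M4. Aligner, quantifier, filters and strand use are not named in the sources used here. The deposited counts are estimated counts, which can be fractional, and come with posterior means. The authors' TPM and FPKM are corrected for effective length, the gap to length being 152 bases in replicate 1 and 130 in replicate 2. Deposited percent values give each transcript's part of its gene's TPM, and a deposited signal, the authors' credibility bounds of TPM, served only to inspect values.

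The members and gene lists were chosen with earlier results of these data known. Symbols, positions and transcript types came from GENCODE M21 by identifier without version (42462 of 43346 genes matched). Left out were 26345 entries for transfer RNAs and spike-ins, which summed to 3 counts in replicate 1 and 0 in replicate 2. Levels are TPM per library with the mean and SD of 2. Counts were rounded and scaled by TMM (edgeR 4.0.16, factors 1.15 and 0.871), and log2 ratios used a prior count of 0.5. Every gene whose mean CPM was 1 or more got a two-sided exact binomial test with Benjamini-Hochberg adjustment, because 1 library on each side leaves no spread for a quasi-likelihood fit. The p-values measure counting error between these libraries, which may differ for technical reasons. The labels name no molecular identifiers, so intervals (95%) and limits (3 counts) cover counting error only. These steps were run on simulated counts that held counting error only, with changes planted only in genes well above the 1 CPM minimum. Changes near 2-fold and differences beyond counting error were not simulated.

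Named in full were the 5 highest and lowest members by mean TPM of each subunit, members under 1 TPM in either library, the 5 with the largest log2 ratio each way at a mean CPM of at least 10, members of fixed regions and families, the highest and lowest of related lists, and members with at least 10 TPM whose leading transcript differs. Members beyond these, such as Mrpl9, Mrpl32, Mrps26 and Mrps11, and the other genes Malsu1 and Nme3 were named after their values were seen. Mrpl33 was not analysed here. Alternatives were posterior means, other minimum levels, FPKM, CPM, coding transcripts alone, DESeq2 1.42.0 size factors, total counts, other filters and folds, and each library alone. The software was Python 3.11.15 (pandas 2.3.3, numpy 2.4.6, matplotlib 3.10.9, scipy 1.17.1) and R 4.3.3.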

Additional observations from a re-analysis of the deposited data

Results flagged for a closer look

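Counts were found in pseudogene entries outside the rule for members, where a count of 0 would allow up to 3. There were no control samples to set them against. Mrpl23-ps1, a processed copy of the exit tunnel gene Mrpl23, held 54 counts in replicate 1 and 13 in replicate 2, with deposited posterior SDs of 14.2 and 10.1 counts. Mrpl23 itself held 249 and 25 counts. Mrpl48-ps, a copy of the central protuberance gene Mrpl48, held 18 counts in replicate 1 and 0 in replicate 2, beside 73 and 6 counts of Mrpl48. Of the Mrps36 copies, Mrps36-ps1 and Mrps36-ps3 had 0 counts in both libraries and Mrps36-ps2 had 0 and 2. Whether these reads belong to the copies or to the genes was not tested.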

How the results depend on the processing

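No paired analysis was possible because the labels give 1 group. The count of detected members ranged from 55 (minimum of 5 TPM) to 76 (any count above 0), and was 65 to 71 with each library left out; the median level was 24.2 TPM, 15.7 to 32.7 TPM with each library left out, and 12.8 TPM with coding transcripts alone. The log2 ratio of large over small subunit was 0.15 to 0.22 with each library left out and 0.19 with posterior means. It was 1.14 with sums, 0.41 with means, 0.67 with subunits by structure and 0.36 without the highest member of each subunit, a choice made after seeing the data. It reversed to -0.24 with detected members alone, -0.23 with CPM and -0.45 with coding transcripts alone; the cause was not tested. For the shift of all genes, total counts gave 942 genes lower in replicate 1 and a median of 0.61, a mean CPM of at least 10 gave 1348 higher and a median of 0.015, no filter gave 2709 lower and a median of 0.42, and a fold of 1.5 gave 2426 lower. For the members, total counts gave 2 of 70 lower, beside 942 of 8895 genes, and a median of 1.21. A mean CPM of at least 10 left fewer genes tested and gave 17 of 49 members higher, beside 1348 of 5678 genes. With a fold of 1.5, 12 of 70 members were lower, beside 2426 of 8884 genes. TPM ratios gave 3 of 70 lower, beside 1450 of 8884 genes, and a median of 0.95. The members' median above that of all genes was 0.78 with a mean CPM of at least 10 and 0.42 with no filter, and 0.60 to 0.66 under the other alternatives. Single levels of 32 members moved by more than 1 SD with CPM, 17 with coding transcripts alone, 6 with FPKM and 4 with posterior means. The 13841484 counts of replicate 2 limit what can be said of members at a few counts, and 2 libraries of 1 group give no estimate of spread for a single gene beyond their difference.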
